A study of Mus musculus with 10 samples.

Results

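The lymphocyte fate transcription factors described here are 10 genes, chosen by name: *Tbx21*, *Eomes*, *Zeb2*, *Prdm1*, *Id2*, *Tcf7*, *Runx3*, *Gata3*, *Bcl11b* and *Nfil3*. All 10 were among the 45706 gene identifiers counted, and all 10 passed the filter on low counts that left 14550 genes for testing. Expression was measured in bulk RNA of 10 subcutaneous melanomas, taken 4 days after implantation from C57BL/6 mice that were 8 weeks old. The implanted cells were a line derived from a *Braf* V600E-driven mouse melanoma and were either COX-competent (*Ptgs*+/+, 4 tumors) or lacked *Ptgs1* and *Ptgs2*, the genes of the prostaglandin-producing enzymes COX-1 and COX-2, after CRISPR/Cas9 editing (*Ptgs*-/-, 3 tumors). The hosts of these 7 tumors were untreated, and whether each tumor came from its own animal is not stated per label. A further 3 *Ptgs*-/- tumors came from NK cell-depleted mice, which per the labels received 200 µg of anti-NK1.1 (clone PK136) with 30 µg of anti-asialo GM1 on days 0 and 2; the general methods of the study describe another schedule. Only the implanted line was edited, so host cells in every tumor keep both genes, whether the edited line is 1 clone is not given in the sources used here, and the antibodies bind any cell with these antigens, not NK cells alone. There was no NK cell-depleted *Ptgs*+/+ group, so the effect of depletion in COX-competent tumors could not be compared.

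These factors set the identity of cytotoxic and helper lymphocytes. T-bet (*Tbx21*) and Eomes are related T-box factors that share control of maturation and of effector genes in NK cells and CD8+ T cells, ZEB2 and BLIMP-1 (*Prdm1*) act with T-bet at the terminal effector end, TCF-1 (*Tcf7*) marks the less differentiated end, and ID2 and NFIL3 are needed early in the innate lymphoid lineage. RUNX3 supports the cytotoxic program, GATA3 the type 2 helper program and T cell development, and BCL11B the commitment to the T cell lineage. None of the 10 is private to lymphocytes: macrophages, keratinocytes, fibroblasts and tumor cells can transcribe several of them.

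The promoters of *Tbx21* and *Eomes* are printed because these were the only members called lower on NK cell depletion, and that of *Runx3* because RUNX proteins bind the motif that occurs in it. Each is the 250 bases before a transcription start of the RefSeq annotation of GRCm38.p6, written 5′ to 3′ on the strand of the gene, with the matches to the motifs searched in capitals. *Tbx21* lies on the minus strand, and its window at chr11:97115332-97115581 holds 3 GC boxes in tandem and 1 CCAAT box on the other strand. *Eomes* lies on the plus strand, and its window at chr9:118477939-118478188 holds 2 CCAAT boxes and a TATA box that begins 30 bases before the start. The window of *Runx3*, on the plus strand at chr4:135120395-135120644 before the first of its 2 starts in the table, holds 2 RUNX motifs read on the other strand (ACCACA) and a CCAAT box on each strand.
Tbx21: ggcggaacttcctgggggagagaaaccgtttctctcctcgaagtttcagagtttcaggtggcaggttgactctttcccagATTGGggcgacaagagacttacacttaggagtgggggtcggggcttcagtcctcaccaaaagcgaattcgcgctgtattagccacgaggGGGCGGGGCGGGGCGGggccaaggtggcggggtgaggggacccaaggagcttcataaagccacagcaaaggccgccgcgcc
Eomes: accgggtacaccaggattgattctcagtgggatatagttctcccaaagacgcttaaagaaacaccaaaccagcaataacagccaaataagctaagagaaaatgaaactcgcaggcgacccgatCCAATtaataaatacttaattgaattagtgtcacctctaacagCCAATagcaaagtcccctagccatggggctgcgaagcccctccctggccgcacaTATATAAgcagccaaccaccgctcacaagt
Runx3: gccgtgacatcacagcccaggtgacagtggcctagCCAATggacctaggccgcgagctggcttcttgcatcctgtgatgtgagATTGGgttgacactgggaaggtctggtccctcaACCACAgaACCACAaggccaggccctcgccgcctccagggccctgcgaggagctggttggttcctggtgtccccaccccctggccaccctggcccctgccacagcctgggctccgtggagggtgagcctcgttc
Both strands were searched for 10 motifs. Neighbouring GC boxes of *Tbx21* share 1 base, and no other matches in the printed windows overlap. The core promoter motifs were the GC box (GGGCGG), found in 32.7% of 32851 windows of the same length over all genes, the CCAAT box (CCAAT, 33.8%) and the TATA box (TATANAA, 10.4%), and these 3 were added after the sequences of the windows had been read. The other 7 were motifs of lymphocyte factors. The T-box motif was searched as GGTGTGA, which 3.33% of all windows hold. The STAT site was TTCNNNGAA, with a share of 7.02% of windows. For RUNX factors the letters were TGTGGT, present in 14.0% of windows. The GATA motif, AGATAA, was present in 9.99% of them. For the TCF and LEF factors the letters CTTTGA were used, found in 13.8%. The NFIL3 motif was TTANGTAA and occurred in 2.06% of windows. The last, for ETS factors, was CCGGAAG and occurred in 6.91%. All 10 members matched the table, with 15 starts. Beside the RUNX motifs of *Runx3*, matches to this second set were a STAT site before *Zeb2*, present in the windows of 2 starts that overlap, an ETS motif before *Tcf7* and a TCF and LEF motif before *Bcl11b*. The windows of *Tbx21* and *Eomes* held no match to the second set, which says only that these letters are not in these windows. The core promoters of the T-box genes thus differ in make-up, and a 3′ read does not show from which start a transcript came.

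The QuantSeq libraries read the 3′ end of each transcript, a count does not scale with gene length, and levels are given as CPM, which are counts scaled to the library total. The 10 libraries held between 8150556 and 12839174 counts, and 3 counts, taken as the detection floor, correspond to 0.234 to 0.368 CPM, a limit that covers counting error only. The labels carry 2 experiment codes: *Ptgs*+/+ replicate 4 and *Ptgs*-/- replicate 3 carry EB042 and the other 8 libraries EB046. *Ptgs2* averaged 253 ± 110 CPM (SD) over the 4 *Ptgs*+/+ tumors, 43.0 ± 27.6 over the 3 *Ptgs*-/- tumors and 44.8 ± 4.56 over the 3 from depleted mice. *Ncr1*, which encodes the NK cell receptor NKp46, had between 20 and 77 counts in each *Ptgs*-/- library and 0 in each library of NK cell-depleted mice. Pigment cell genes were scarce in every group, with *Tyrp1* at 0 counts in all libraries but 1, while the lineage factor *Mitf* averaged 21.7 to 28.9 CPM.

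**Figure D1:**
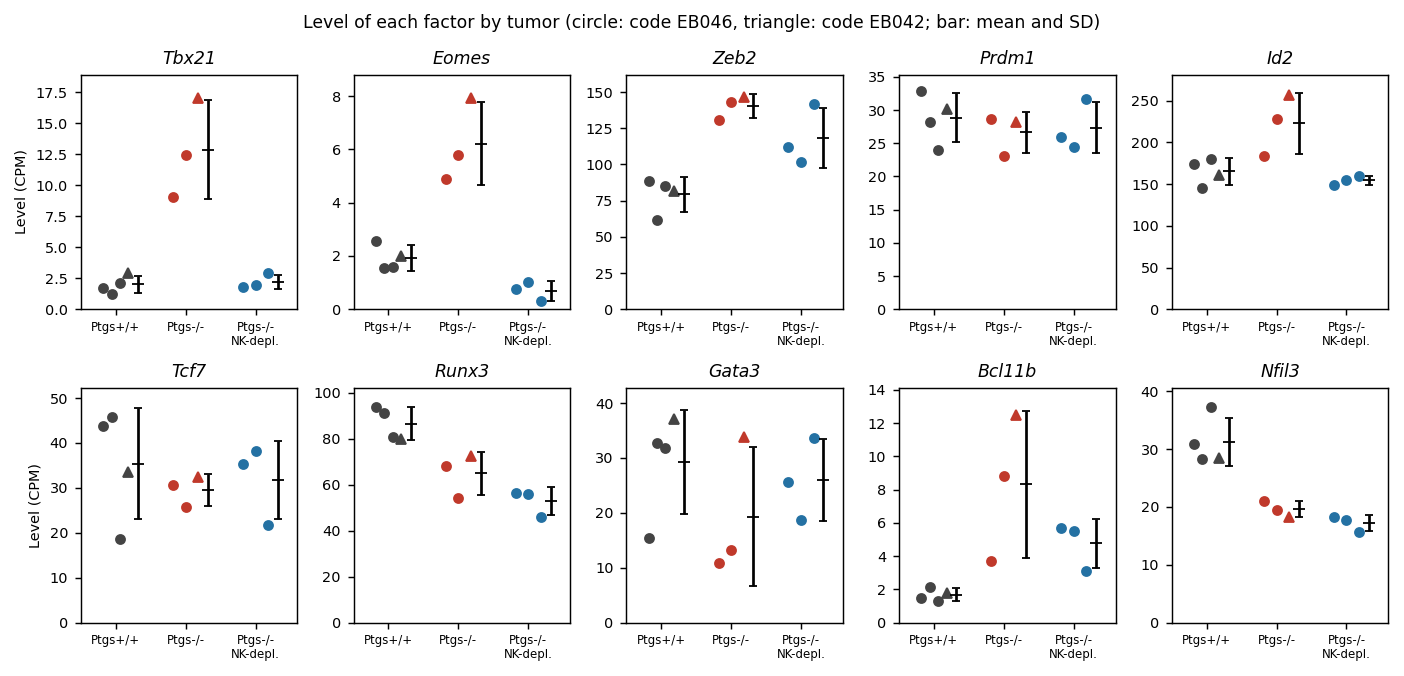
Level of each of the 10 factors (CPM, linear axes from 0) in every tumor of the 3 groups, with the experiment code as the symbol and the mean and SD of each group as a bar beside it. *Tbx21* lay between 9.08 and 17.1 CPM in the *Ptgs*-/- tumors and at 2.93 or less in all others, and *Nfil3* was lower in every *Ptgs*-/- tumor, depleted or not, than in any *Ptgs*+/+ tumor.

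The 10 factors differed widely in level. In *Ptgs*+/+ tumors *Id2* was the most abundant at 165 ± 15.7 CPM (SD over 4 tumors), followed by *Runx3* at 86.3 ± 7.15 and *Zeb2* at 79.4 ± 12, whose ranges overlapped. *Tcf7* at 35.4 ± 12.4, *Nfil3* at 31.2 ± 4.19, *Gata3* at 29.3 ± 9.47 and *Prdm1* at 28.8 ± 3.70 CPM formed a middle tier within which every range overlapped. *Tbx21*, *Eomes* and *Bcl11b*, at means of 2.0, 1.92 and 1.69 CPM, rested on 12 to 33 counts a library. These 3 rarest factors were also the ones with the largest log2 fold changes in the first comparison.

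The first comparison, of *Ptgs*-/- with *Ptgs*+/+ tumors, addressed which of the factors differ when the tumor cells cannot make prostaglandins. *Tbx21* (6.19-fold), *Bcl11b* (4.78-fold), *Eomes* (3.08-fold), *Zeb2* (1.70-fold) and *Id2* (1.29-fold) were higher in *Ptgs*-/- tumors, *Nfil3* (1.66-fold) and *Runx3* (1.39-fold) were lower, and *Prdm1*, *Tcf7* and *Gata3* did not pass the test. A gene was called at an adjusted p at or under 0.05 (Benjamini-Hochberg, over all 14550 genes) in the quasi-likelihood test of edgeR, and by this rule 7 of 10 members were called, beside 23.1% of all genes tested. The 5 higher calls stand beside 12.1% of all genes called higher, and the 2 lower calls beside 11%. With the study's added requirement of a log2 change of 1.5 or more in size, 3 members remained (*Tbx21*, *Eomes*, *Bcl11b*), beside 4.15% of all genes. For all 7 called members the ranges of the 2 groups did not overlap, as for 30.6% of all genes. The median log2 fold change was 0.099 over the members and -0.0060 over all genes.

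The T-box gene *Tbx21* (ENSMUSG00000001444; GRCm38 chromosome 11, 97098071 to 97115331, minus strand, no overlapping gene) encodes T-bet, a master regulator of type 1 immunity. Its level was 1.71, 1.24, 2.11 and 2.93 CPM in the 4 *Ptgs*+/+ tumors, 9.08, 12.4 and 17.1 in the 3 *Ptgs*-/- tumors, and 1.82, 1.94 and 2.88 in the 3 NK cell-depleted *Ptgs*-/- tumors. Every untreated *Ptgs*-/- tumor stood above every other tumor, while the depleted and the *Ptgs*+/+ tumors overlapped. The rise over *Ptgs*+/+ tumors was 2.63 on the log2 scale (standard error (SE) 0.29, adjusted p = 0.000185). Within the libraries of code EB046 it was 2.64 (adjusted p = 0.00183). The summed NK cell markers had the same order in the 3 *Ptgs*-/- tumors, at 61.0, 84.9 and 125 CPM, and their part in the result was not tested.

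Its paralog *Eomes* (ENSMUSG00000032446; chromosome 9, 118478212 to 118486132, plus strand), required for mature NK cells, had 2.57, 1.55, 1.58 and 1.99 CPM in *Ptgs*+/+ tumors, 4.91, 5.79 and 7.93 in *Ptgs*-/- tumors and 0.749, 1.01 and 0.298 after NK cell depletion. The 3 groups formed 3 separate ranges, with the depleted tumors lowest and 1 of them at the floor of 3 counts. *Eomes* was 1.62 higher on the log2 scale in *Ptgs*-/- than in *Ptgs*+/+ tumors (SE 0.31, adjusted p = 0.00336), and 1.46 higher within code EB046 (adjusted p = 0.0364). An antisense gene, *Gm33460*, overlaps its exons in the GENCODE M21 annotation and had no row of its own in the counts. The QuantSeq forward kit keeps the strand, but whether the counting used it is not given in the sources used here. In bulk RNA, fewer cells of a type and less RNA of a gene per cell cannot be told apart, for this and every other member.

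*Zeb2* and *Prdm1* encode repressors that T-bet engages late in effector differentiation, and both are also transcribed by macrophages. *Zeb2* (ENSMUSG00000026872; chromosome 2, 44983632 to 45117395, minus strand) had 88.3, 61.9, 85.4 and 81.8 CPM in *Ptgs*+/+ tumors, 131, 143 and 147 in *Ptgs*-/- tumors and 112, 101 and 142 in depleted tumors. Both sets of *Ptgs*-/- tumors lay above all *Ptgs*+/+ tumors. The rise in untreated *Ptgs*-/- tumors was 0.76 on the log2 scale (SE 0.14, adjusted p = 0.00242; 0.78 within code EB046, adjusted p = 0.0201). Macrophage markers moved in the same direction: 7 of 11 tested were called higher and their summed level was 2568 to 3111 CPM in *Ptgs*+/+, 4291 to 6496 in *Ptgs*-/- and 3936 to 4108 CPM in depleted tumors; their part in the *Zeb2* result was not tested. The antisense gene *Zeb2os* shares exons with *Zeb2* and had 1698 counts over the 10 libraries. *Prdm1* (ENSMUSG00000038151; chromosome 10, 44437177 to 44528501, minus strand) had the smallest fitted change of the 10 genes in each of the 3 comparisons, at 24.1 to 32.9 CPM in *Ptgs*+/+, 23.1 to 28.7 in *Ptgs*-/- and 24.4 to 31.7 CPM in depleted tumors. Its log2 fold change of -0.17 (95% interval -0.45 to 0.0996, adjusted p = 0.404) leaves room for a modest difference in either direction.

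*Id2* (ENSMUSG00000020644; chromosome 12, 25093799 to 25097140, minus strand), an inhibitor of E proteins that innate lymphoid cells need and many other cells express, had 174, 145, 180 and 161 CPM in *Ptgs*+/+ tumors. It had 184, 228 and 257 CPM in *Ptgs*-/- tumors and 149, 155 and 160 in depleted tumors. The lowest *Ptgs*-/- value exceeded the highest *Ptgs*+/+ value by little, and the rise was 0.37 on the log2 scale (SE 0.12, adjusted p = 0.0373). This call did not hold in 10 of 20 alternatives. The adjusted p was 0.100 without *Ptgs*+/+ replicate 2, 0.0746 without *Ptgs*+/+ replicate 4, 0.0940 without *Ptgs*-/- replicate 2 and 0.116 without *Ptgs*-/- replicate 3. Leaving out depleted replicate 1 or 2 gave 0.0580 or 0.0558, and the libraries of code EB046 alone gave 0.29 on the log2 scale with an adjusted p of 0.176.

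*Nfil3* (ENSMUSG00000056749; chromosome 13, 52967209 to 52981073, minus strand), which NK cell progenitors require and many cell types induce under stress or cytokines, moved against the T-box genes between the untreated groups. It had 30.8, 28.2, 37.2 and 28.5 CPM in *Ptgs*+/+ tumors, 21.1, 19.6 and 18.2 in *Ptgs*-/- tumors and 18.3, 17.8 and 15.6 in depleted tumors. Every *Ptgs*-/- tumor of either kind was below every *Ptgs*+/+ tumor. The difference was -0.73 on the log2 scale (SE 0.14, adjusted p = 0.00315; -0.68 within code EB046, adjusted p = 0.0237).

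*Runx3* (ENSMUSG00000070691; chromosome 4, 135120652 to 135177990, plus strand), which in CD8+ T cells and NK cells favors cytotoxic genes, was lower as well, at 93.9, 91.0, 80.8 and 79.7 CPM in *Ptgs*+/+ and 68.1, 54.2 and 72.3 in *Ptgs*-/- tumors. After depletion it was at 56.5, 55.9 and 45.8 CPM. All *Ptgs*-/- tumors, depleted or not, were again below all *Ptgs*+/+ tumors. Between the untreated groups this cytotoxic regulator was thus lower where *Tbx21*, *Eomes* and the NK cell markers were higher. The depleted tumors were low in *Runx3* and also lowest in *Eomes* and in the summed NK cell markers. The difference was -0.47 on the log2 scale (SE 0.13, adjusted p = 0.0211; -0.56 within code EB046, adjusted p = 0.0412). Of 6 neutrophil markers tested, 3 (*S100a8*, *S100a9* and *Cxcr2*) were called lower along with *Nfil3* and *Runx3*, and none higher. *Csf3r* (0.61, adjusted p = 0.123) and *Retnlg* (0.28, adjusted p = 0.668) had positive log2 fold changes without a call. The summed level of the list was 222 to 288 CPM in *Ptgs*+/+, 44.5 to 102 in *Ptgs*-/- and 129 to 161 CPM in depleted tumors. Most of it in *Ptgs*+/+ tumors came from *S100a8* and *S100a9*, at means of 113 and 93.1 CPM. The part of these markers in both results was not tested. The *Runx3* call missed the threshold without *Ptgs*+/+ replicate 1 (adjusted p = 0.0656), *Ptgs*+/+ replicate 2 (0.0562) or *Ptgs*-/- replicate 2 (0.105).

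Of the factors of T cell development and helper fate, *Bcl11b* rose and *Tcf7* and *Gata3* did not pass the test. *Bcl11b* (ENSMUSG00000048251; chromosome 12, 107910403 to 108003602, minus strand) had 1.48, 2.16, 1.32 and 1.78 CPM in *Ptgs*+/+ tumors, 3.68, 8.79 and 12.5 in *Ptgs*-/- tumors and 5.67, 5.54 and 3.08 in depleted tumors. Both *Ptgs*-/- groups were above the *Ptgs*+/+ tumors and overlapped each other, and the rise in untreated tumors was 2.26 on the log2 scale (SE 0.38, adjusted p = 0.00192; 1.91 within code EB046, adjusted p = 0.0215). The spread among *Ptgs*-/- tumors followed the summed T cell markers, which were 31.2, 71.5 and 81.7 CPM in the same 3 tumors.

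*Tcf7* (ENSMUSG00000000782; chromosome 11, 52252371 to 52283014, minus strand) had 43.7, 45.9, 18.6 and 33.5 CPM in *Ptgs*+/+ tumors, a wider range than the 30.6, 25.7 and 32.4 CPM of the *Ptgs*-/- tumors that it encloses. The depleted tumors had 35.3, 38.1 and 21.8 CPM, and none of the groups separated. The log2 fold change between *Ptgs*-/- and *Ptgs*+/+ tumors was -0.32 (95% interval -0.88 to 0.23, adjusted p = 0.446).

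*Gata3* (ENSMUSG00000015619; chromosome 2, 9857078 to 9890034, minus strand) had 15.5, 32.8, 31.9 and 37.0 CPM in *Ptgs*+/+ tumors, 10.9, 13.2 and 33.8 in *Ptgs*-/- tumors and 25.7, 18.7 and 33.7 in depleted tumors. The *Ptgs*-/- tumor with the high value was replicate 3, the only one of code EB042, and without it the log2 fold change went from -0.65 (adjusted p = 0.252) to -1.28 (adjusted p = 0.0283). Within code EB046 it was -1.16 (adjusted p = 0.0557). The antisense gene *Gm13256* overlaps *Gata3*, and without stated use of strand their reads cannot be told apart. Keratinocytes also transcribe *Gata3*, and the summed keratinocyte markers were 34.5, 68.2, 80.6 and 61.4 CPM in *Ptgs*+/+, 29.7, 40.5 and 47.2 in *Ptgs*-/- and 46.8, 48.5 and 55.7 CPM in depleted tumors. In both untreated groups the tumor lowest in *Gata3* was also lowest in these markers. This did not hold after depletion, where replicate 2 was lowest in *Gata3* (18.7 CPM) and replicate 1 in the markers (46.8 CPM). Of 8 keratinocyte markers tested 1, *Krt5*, was called lower in *Ptgs*-/- than in *Ptgs*+/+ tumors. The part of these markers in the *Gata3* values was not tested.

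**Figure D2:**
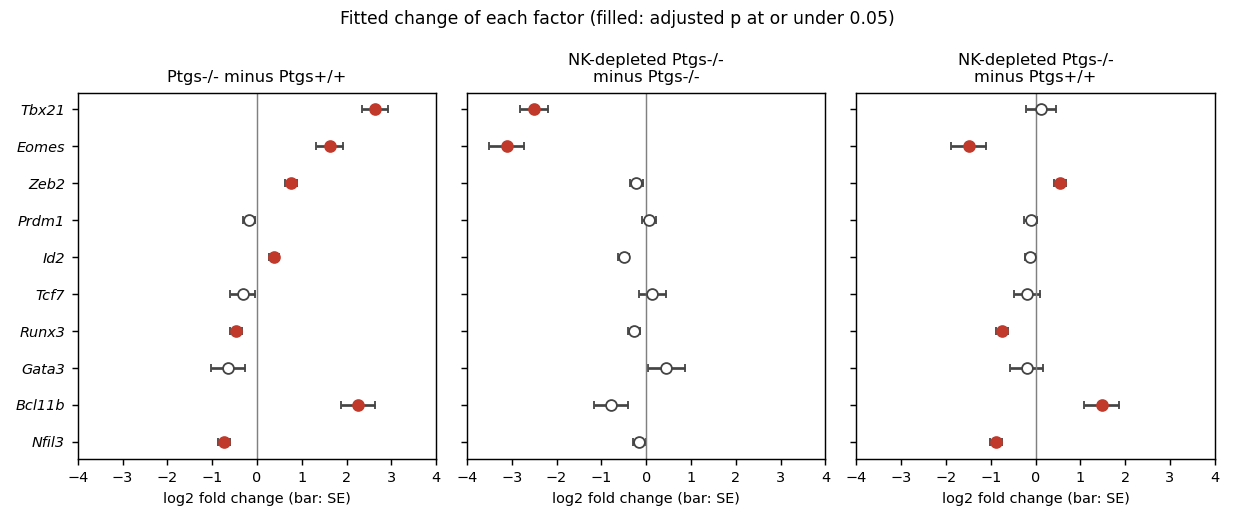
Fitted log2 fold change of each factor with its standard error as a bar in the 3 comparisons, filled where the adjusted p was at or under 0.05. Only *Tbx21* and *Eomes* passed the threshold in the comparison of depleted with untreated *Ptgs*-/- tumors, at -2.51 and -3.12, and the comparisons share groups of libraries.

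The second comparison, of NK cell-depleted with untreated *Ptgs*-/- tumors, asked which of these transcripts depend on the presence of cells that the antibodies remove. *Eomes* (8.69-fold) and *Tbx21* (5.68-fold) were lower after depletion, and none of the other 8 members passed the test. The 2 calls of 10 members, both lower, stand beside 1.44% of all genes called, 0.515% lower and 0.921% higher. Both also reached the added log2 threshold of 1.5, beside 1.15% of all genes. The ranges did not overlap for 3 members (*Tbx21*, *Eomes*, *Id2*), beside 17.6% of all genes. The median log2 fold change was -0.25 over the members and 0.013 over all genes.

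*Eomes* fell by 3.12 on the log2 scale (SE 0.38, adjusted p = 0.00200) and *Tbx21* by 2.51 (SE 0.32, adjusted p = 0.00213). Within the libraries of code EB046, which hold 2 of the 3 untreated tumors, the values were -2.94 for *Eomes* (adjusted p = 0.0230) and -2.29 for *Tbx21* (adjusted p = 0.0157). The depleted tumors together held 21 *Eomes* counts and 67 *Tbx21* counts, so the remaining *Tbx21* was the better measured of the 2. A comparison of library composition applies to all these values: summed skeletal muscle markers were 2689 to 6524 CPM in depleted tumors against 137 to 473 CPM in untreated *Ptgs*-/- tumors, with 8 of 10 called higher, and the part of this tissue in the falls was not tested.

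*Id2* was lower in each depleted tumor than in each untreated *Ptgs*-/- tumor, by 0.50 on the log2 scale, with an adjusted p of 0.0917 that misses the threshold. It passed with DESeq2 (adjusted p = 0.00759), with a likelihood ratio test (0.0322) and without *Ptgs*-/- replicate 1 (0.0160). For *Bcl11b* the log2 fold change was -0.78 (95% interval -1.53 to -0.030, adjusted p = 0.494), and for *Zeb2* -0.22 (-0.51 to 0.064, adjusted p = 0.638). *Runx3* at -0.27 (-0.54 to -0.00072, adjusted p = 0.517) and *Nfil3* at -0.16 (-0.45 to 0.13, adjusted p = 0.741) also did not pass. The intervals of *Bcl11b* and *Runx3* leave out 0, yet their unadjusted quasi-likelihood p-values were 0.0652 and 0.0739. Intervals of log2 fold changes use a normal approximation and are narrower than the test implies. The widest interval among the members was that of *Gata3*, from -0.35 to 1.25 around 0.45, so that these data bound a change of this gene loosely. *Prdm1* (0.064) and *Tcf7* (0.13) were nearest to no change, and their sign depended on which tumor was left out.

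The third comparison set NK cell-depleted *Ptgs*-/- tumors beside *Ptgs*+/+ tumors, in which COX deficiency of the tumor cells and the antibody treatment of the host differ together and cannot be told apart. It shares libraries with both others, so its values are given side by side with theirs. *Nfil3* (1.85-fold), *Runx3* (1.67-fold) and *Eomes* (2.82-fold) were lower and *Bcl11b* (2.78-fold) and *Zeb2* (1.46-fold) higher, which makes 5 of 10 members called, beside 12.5% of all genes. The 2 higher calls stand beside 6.63% of all genes and the 3 lower calls beside 5.87%. None reached the added log2 threshold of 1.5, beside 2.71% of all genes, and the ranges did not overlap for the same 5, beside 27.1%. The median log2 fold change was -0.16 over the members and -0.0058 over all genes. Markers of other tissues differed as well: all 10 skeletal muscle markers were called higher (median log2 fold change 5.52, summed level 2689 to 6524 CPM against 26.3 to 202 CPM), and of 6 neutrophil markers tested 3 were called lower and 1 higher. Their part in these calls was not tested.

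*Nfil3*, at -0.89 on the log2 scale (SE 0.14, adjusted p = 0.00164), and *Runx3*, at -0.74 (SE 0.13, adjusted p = 0.00350), were called under every alternative run for this comparison. For *Nfil3* the values in the order of the 3 comparisons were -0.73, -0.16 and -0.89, and for *Runx3* they were -0.47, -0.27 and -0.74. Both were low in depleted *Ptgs*-/- tumors as well as untreated ones, while *Tbx21* overlapped the *Ptgs*+/+ range and its log2 fold change against *Ptgs*+/+ tumors was 0.12 after depletion (95% interval -0.52 to 0.76, adjusted p = 0.855).

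The other 3 calls were less secure. *Eomes* fell by 1.5 on the log2 scale relative to *Ptgs*+/+ tumors (SE 0.39, adjusted p = 0.0285), and missed the threshold without *Ptgs*+/+ replicate 1 (0.0783), depleted replicate 1 (0.0781) or depleted replicate 3 (0.107). *Bcl11b* was 1.47 higher (SE 0.39, adjusted p = 0.0319), with adjusted p-values of 0.0828, 0.0584 and 0.0570 without *Ptgs*+/+ replicate 1, 3 or 4, and of 0.110 and 0.109 without depleted replicate 1 or 2. *Zeb2* was 0.54 higher (SE 0.14, adjusted p = 0.0233), with values of 0.0519 without *Ptgs*+/+ replicate 2, 0.0571 without depleted replicate 1 and 0.111 without depleted replicate 3. With the replicate number as a block, the adjusted p was 0.0758 for *Eomes* and 0.0714 for *Bcl11b*. Within code EB046, *Eomes* (0.0593) and *Zeb2* (0.0577) missed and *Bcl11b* (0.0481) passed.

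**Figure D3:**
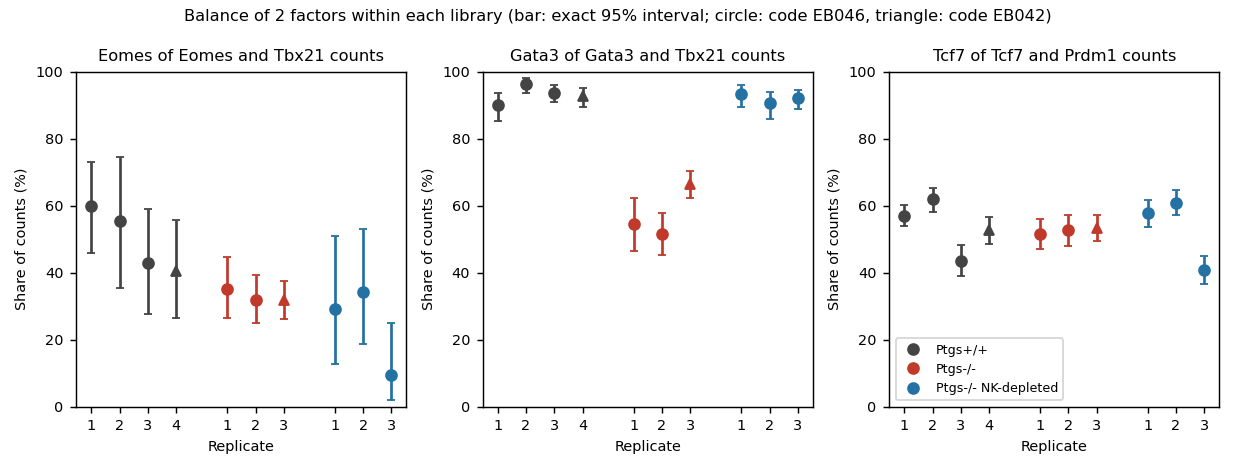
Share of counts (percent, axis from 0 to 100) that the first gene takes of the summed counts of both genes, for each library by its replicate number, with the exact 95% interval of the counts as a bar. *Gata3* took 51.6% to 66.5% of the *Gata3* and *Tbx21* counts in untreated *Ptgs*-/- tumors and 90.0% to 96.4% in all others.

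Ratios of paired factors within a library do not move with its depth, and 3 were computed: *Eomes* to *Tbx21*, *Gata3* to *Tbx21* and *Tcf7* to *Prdm1*. *Eomes* made up 60.0%, 55.6%, 42.9% and 40.4% of the *Eomes* and *Tbx21* counts in *Ptgs*+/+ tumors and 35.1%, 31.8% and 31.8% in *Ptgs*-/- tumors. The means were 49.7% ± 9.54 (SD, n = 4) and 32.9% ± 1.91 (SD, n = 3) respectively, and each *Ptgs*-/- tumor was below each *Ptgs*+/+ tumor. In depleted tumors the shares were 29.2%, 34.4% and 9.38%, the last from 3 of 32 counts with an exact Clopper-Pearson 95% interval of 1.98% to 25%. A two-sided exact permutation test of *Ptgs*-/- against *Ptgs*+/+ tumors gave p = 0.0571, the smallest this design allows, and 0.171 after adjustment over the 9 tests of shares. The exact 95% counting interval of *Ptgs*+/+ replicate 1 lay above those of all *Ptgs*-/- tumors, and those of the other 3 *Ptgs*+/+ tumors, from 27 to 47 counts, overlapped them.

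The mean share of *Gata3* in *Gata3* and *Tbx21* counts was 93.2% ± 2.62 (SD over 4 tumors) in the *Ptgs*+/+ group, 57.6% ± 7.87 (SD over 3) in the *Ptgs*-/- group and 92.0% ± 1.38 (SD over 3) after depletion. Untreated *Ptgs*-/- tumors stood 35.7 percentage points below *Ptgs*+/+ tumors (exact permutation p = 0.0571, adjusted 0.171) and 34.5 points below depleted tumors (exact permutation p = 0.1, adjusted 0.225), in both cases without overlap and at the smallest p possible. This share was low also in *Ptgs*-/- replicate 3, at 66.5%, the tumor with the high *Gata3* level. Of this pair only *Tbx21* was called in these comparisons (log2 fold changes 2.63 and -2.51, against -0.65 and 0.45 for *Gata3*). The share thus largely restates the *Tbx21* change and is not a separate result. The share of *Tcf7* in *Tcf7* and *Prdm1* counts was near even in all groups, at 53.8% ± 7.77 (SD, n = 4), 52.6% ± 0.959 (SD, n = 3) and 53.1% ± 10.9 (SD, n = 3), with overlapping ranges in each comparison.

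**Figure D4:**
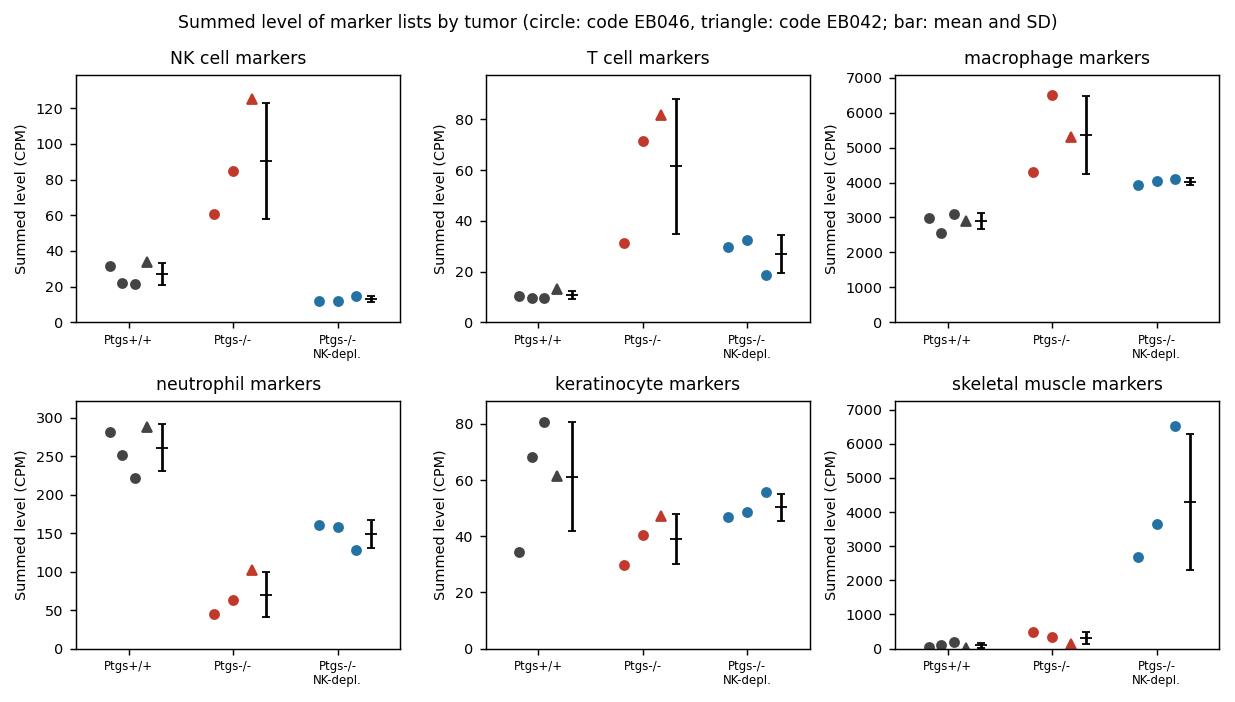
Summed level (CPM, linear axes from 0) of 6 lists of cell type markers in every tumor, with the experiment code as the symbol and the mean and SD of each group as a bar. NK cell markers were at 61.0 to 125 CPM in untreated *Ptgs*-/- tumors and at 12 to 15 CPM after depletion, while T cell markers in depleted tumors stayed above those of *Ptgs*+/+ tumors.

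NK cell and T cell markers were higher in untreated *Ptgs*-/- than in *Ptgs*+/+ tumors along with *Tbx21*, *Eomes* and *Bcl11b*, while *Nfil3* and *Runx3* were lower there. The summed level of 10 NK cell markers was 21.4 to 33.6 CPM in *Ptgs*+/+, 61.0 to 125 in *Ptgs*-/- and 12 to 15 CPM in depleted tumors, with *Ncr1* at 0 in the last group. Of the 10, 7 were called higher in *Ptgs*-/- than in *Ptgs*+/+ tumors and 7 were called lower after depletion, and their median log2 fold changes were 1.99 and -2.59, the latter also with *Ncr1* set to the bound that its floor allows. The 12 T cell markers summed to 9.57 to 13.0, 31.2 to 81.7 and 18.6 to 32.5 CPM, with 10 of 11 tested called higher in *Ptgs*-/- tumors and 1, *Trbc1*, called lower after depletion. Their median log2 fold changes were 2.59 and -1.15. Some markers, such as *Cd3e*, *Cd5*, *Cd6* and *Cd8a*, and *Klre1* and *Klrb1f* of the NK cell list, lay at 0.942 CPM or less in every *Ptgs*+/+ tumor. They passed the filter on low counts through *Ptgs*-/- libraries, so these counts of tested markers called higher lean towards *Ptgs*-/- tumors. Markers of other cells also differed between *Ptgs*-/- and *Ptgs*+/+ tumors: 6 of 9 dendritic cell markers, 4 of 6 fibroblast markers and 1 of 3 tested B cell and plasma cell markers were called higher, as were 4 of 10 skeletal muscle markers, and 2 of 4 endothelial markers were called lower. After depletion no gene of the dendritic cell, fibroblast, B cell and endothelial lists was called, while 8 skeletal muscle markers and 2 neutrophil markers (*S100a8* and *S100a9*) were called higher, and their part in the results of the members was not tested.

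Dividing a member by such a sum, a description chosen after the values had been seen, gave ratios that hold for the summed markers only. *Eomes* amounted to 7.13% ± 0.933 of the NK cell marker sum over the 4 *Ptgs*+/+ tumors and to 7.07% ± 0.886 over the 3 *Ptgs*-/- tumors (SD), with overlapping ranges. *Tbx21* amounted to 5.45%, 5.63%, 9.84% and 8.72% of the same sum in *Ptgs*+/+ tumors, 14.9%, 14.6% and 13.6% in *Ptgs*-/- tumors and 15.2%, 16.0% and 19.2% in depleted tumors. All *Ptgs*-/- tumors, depleted or not, were above all *Ptgs*+/+ tumors in this ratio. The markers in the sum did not move alike. In untreated *Ptgs*-/- against *Ptgs*+/+ tumors their log2 fold changes ran from 0.45 (*Klrb1b*) to 3.23 (*Klrb1f*), beside 2.63 for *Tbx21*. *Klrd1*, the most abundant of them in *Ptgs*+/+ tumors at a mean of 7.14 CPM, was at 0.90 without a call. Another choice of markers could thus give other ratios for *Tbx21* and *Eomes*. After depletion *Eomes* was at 6.25%, 8.40% and 1.99%. The sum in depleted tumors came mostly from *Klrd1*, *Klrb1b* and *Klrk1*, at means of 3.65, 3.18 and 3.11 CPM, with *Ncr1* at 0. Which cells held these transcripts and the remaining *Tbx21* was not tested. *Bcl11b* amounted to 16.1% ± 4.34 (SD, n = 4), 13.1% ± 1.88 (SD, n = 3) and 17.6% ± 1.32 (SD, n = 3) of the T cell marker sum in the 3 groups. No test was made of these ratios, and the marker genes may themselves change in level per cell.

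The genes most like a member over the 10 libraries were sought by the smallest root-mean-square difference of centered log2 CPM. For *Tbx21* they were *Ms4a4b* (0.29), *Klra3*, *Klrk1*, *Gpr174* and *Lck*, of which *Klra3* and *Klrk1* encode NK cell receptors and *Lck* the kinase of the T cell receptor. For *Eomes* they were *Txk* (0.38), *Klri2*, *Il2rb*, *Klrb1c* and *Nkg7*. Neither list held the other T-box gene: *Tbx21* stood at rank 46 of the genes nearest to *Eomes* and *Eomes* at rank 424 of those nearest to *Tbx21*, and the distance between them was 0.83. *Gata3* was nearest to *Stap2* (0.20), *Gpihbp1*, *Aldh1l1*, *Grhl1* and *Slc12a2*, among which *Grhl1* encodes an epithelial factor, and none of the 5 is a lymphocyte marker of the lists used here. *Tcf7* was nearest to *Kti12* (0.12), *Trp53*, *Skp2*, *Mcm2* and *Cdk2*, which include genes of DNA replication and the cell cycle. Among the members themselves *Nfil3* and *Runx3* were the closest pair, at 0.21. The points share library, depth and composition, so these distances are descriptions of 10 libraries.

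**Figure D5:**
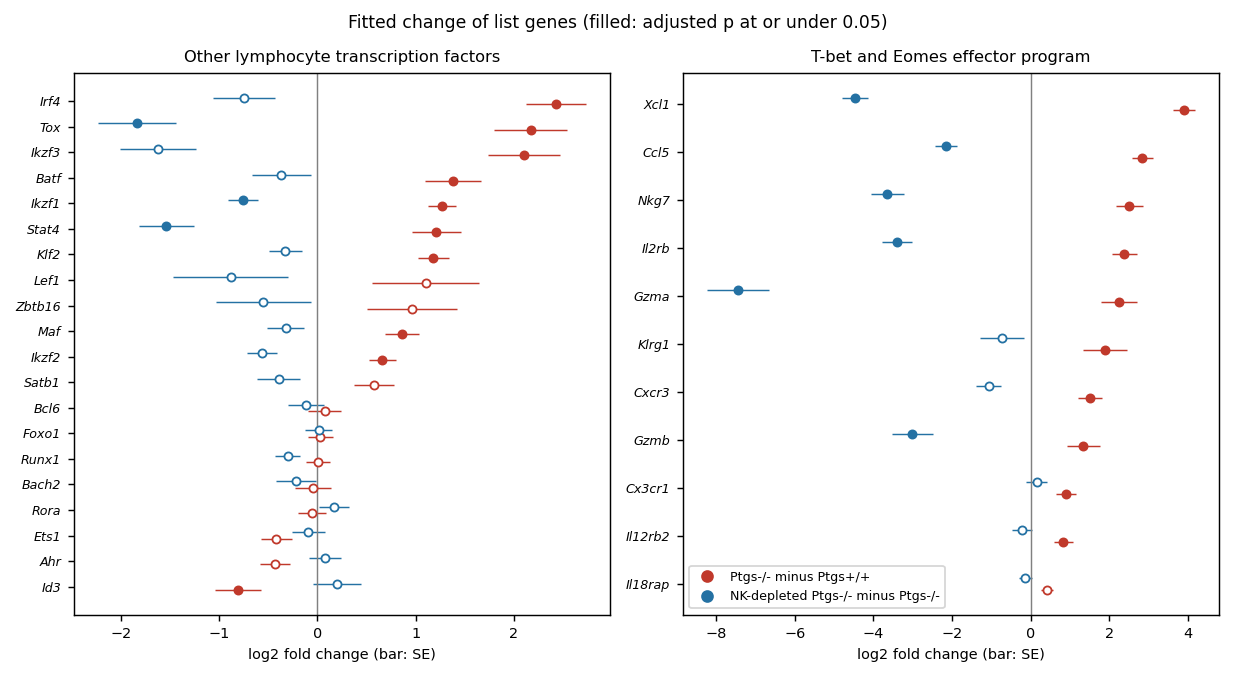
Fitted log2 fold change with its standard error as a bar for other lymphocyte transcription factors and for effector genes linked to T-bet and Eomes, in *Ptgs*-/- against *Ptgs*+/+ tumors and in depleted against untreated *Ptgs*-/- tumors, filled where the adjusted p was at or under 0.05. Genes are ordered by the first comparison, from *Irf4* at 2.43 to *Id3* at -0.81 and from *Xcl1* at 3.91 to *Il18rap* at 0.42.

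Effector genes that T-bet and Eomes are known to control in lymphocytes were taken as a list. Of 15 such effector genes 11 could be tested. In *Ptgs*-/- against *Ptgs*+/+ tumors 10 were called higher and none lower (median log2 difference 1.90), beside 12.1% of all genes called higher. The largest rises were those of *Xcl1*, a chemokine for type 1 dendritic cells (3.91, adjusted p = 1.47e-05), *Ccl5*, a chemokine of activated lymphocytes (2.85, adjusted p = 6.12e-05), *Nkg7*, a protein of cytotoxic granules (2.52, adjusted p = 0.000578), and *Il2rb*, a chain of the IL-2 and IL-15 receptors (2.39, adjusted p = 0.000575). After depletion 6 of the 11 were called lower and none higher, beside 0.515% of all genes called lower. The median was -2.16, and *Il18rap*, *Cxcr3*, *Il12rb2*, *Klrg1* and *Cx3cr1* did not pass, the last at 0.15. *Cx3cr1*, counted among the 10 higher, lay at 87.6 to 112 CPM in depleted and 65.5 to 124 CPM in untreated *Ptgs*-/- tumors, so it did not follow *Tbx21* and *Eomes* there. *Gzma*, a granzyme, fell by 7.44 on the log2 scale (adjusted p = 0.000971), from 264, 338 and 877 counts to 2, 6 and 0 counts. *Xcl1* fell by 4.47 (adjusted p = 0.000174), *Nkg7* by 3.65 (0.00154) and *Il2rb* by 3.41 (0.00153). Between depleted and *Ptgs*+/+ tumors *Gzma* was lower (-5.20, adjusted p = 0.00181), *Cx3cr1* higher (1.05, adjusted p = 0.0178) and the other 9 did not pass. The genes not tested for low counts were *Ifng*, *Prf1*, *S1pr5* and *Fasl*.

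Other transcription factors of lymphocytes divided more. Of 22 listed, 20 were tested, and in *Ptgs*-/- against *Ptgs*+/+ tumors 9 were called higher and 1 lower (median log2 difference 0.76). The largest were *Irf4* (2.43, adjusted p = 0.000387), a factor of activated lymphocytes and of some myeloid cells, *Tox* (2.17, adjusted p = 0.00197), which NK and T cell development need, *Ikzf3* (2.11, adjusted p = 0.00216) and *Batf* (1.38, adjusted p = 0.00581). *Id3*, a relative of *Id2*, was the lower one (-0.81, adjusted p = 0.0266). After depletion 3 were called lower, *Tox* (-1.83, adjusted p = 0.0478), *Stat4*, the mediator of IL-12 signals (-1.54, adjusted p = 0.0168), and *Ikzf1* (-0.75, adjusted p = 0.0362), and none higher, with a median of -0.35. *Irf4* (1.68, adjusted p = 0.00467), *Batf* (1.01, adjusted p = 0.0434), *Klf2* (0.86, adjusted p = 0.00449) and *Ikzf1* (0.51, adjusted p = 0.0411) were higher in depleted *Ptgs*-/- than in *Ptgs*+/+ tumors, as *Bcl11b* and *Zeb2* were.

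Cytokine genes under GATA3 gave little to read. Of 6 markers of type 2 lymphocytes, *Il4*, *Il5*, *Il13*, *Il17rb* and *Ptgdr2* had too few counts to test, so differences were not detectable at this depth. The IL-33 receptor gene *Il1rl1*, which mast cells and stromal cells also express, was lower in *Ptgs*-/- than in *Ptgs*+/+ tumors (-2.32, adjusted p = 0.000158) and in depleted *Ptgs*-/- than in *Ptgs*+/+ tumors (-2.21, adjusted p = 0.000201). Between the 2 kinds of *Ptgs*-/- tumor its log2 fold change was 0.12 (adjusted p = 0.891).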

How the data were processed

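RNA of 10 whole tumors was sequenced as QuantSeq 3′ libraries. After trimming, the authors used STAR for alignment to GRCm38 and featureCounts with the Ensembl version 86 annotation, and deposited raw counts per gene, neither normalized nor pooled. Use of strand, multimapping reads or molecular identifiers is not given in the sources used here. Of 45706 identifiers 45143 were named by GENCODE M21, which also gave the coordinates.

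edgeR 4.0.16 (R 4.3.3) was run on them: filterByExpr, TMM, and the quasi-likelihood test with all 10 libraries in 1 model. CPM was computed here from the deposited counts without TMM. SE is the log2 fold change divided by the root of F. Separate animals are not stated per label, so p-values measure the spread between these tumors. Replicates differed beyond sampling noise (chi-square per degree of freedom 8.06 to 33.2). The code was tested on simulated data.

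The members, lists and tests were chosen with earlier results of these data known. Genes named are the 10 members, up to 4 called genes per list and comparison with the largest absolute change (all genes of a list where few were called), the 5 genes nearest to *Tbx21*, *Eomes*, *Gata3* and *Tcf7*, and *Ptgs2* and *Ncr1*. A gene of the list of other transcription factors is not reported here and was left out of its counts and medians after the values had been seen. Marker lists of B cells, dendritic cells, neutrophils, fibroblasts, endothelium and skeletal muscle were also measured. Alternatives were DESeq2 1.42.0, other normalizations and filters, the experiment code as a term or code EB046 alone, a likelihood ratio test, the replicate number as a block, only the groups compared, each library left out, and shares from summed counts. For shares the test was an exact permutation test, two-sided.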

Additional observations from a re-analysis of the deposited data

How the results depend on the processing

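Over 597 alternatives of the 30 member results, direction and side of the threshold were kept in 558, a call was lost in 28 and gained in 4, and the sign changed in 7. With the added log2 threshold of 1.5 the calls among members went from 7 to 3 in *Ptgs*-/- against *Ptgs*+/+ tumors and from 5 to 0 in depleted *Ptgs*-/- against *Ptgs*+/+ tumors. With at least 10 counts in every library, 1 member (*Tbx21*) was called lower on depletion in place of 2, since *Eomes* was then not tested. In the third comparison the replicate number as a block left 3 of 5 calls, code EB046 alone 3, and leaving out 1 library 2 to 5. The numbers were not taken to pair the tumors, since deviations of same-numbered tumors correlated at -0.191 to 0.355, and the block moved no other count of member calls. Code EB042 holds 1 library in each of 2 groups and gives no value of its own. With 1 library left out, the log2 fold change ran from -0.065 to 0.134 for *Prdm1* and from -0.025 to 0.332 for *Tcf7* in the second comparison, and from -0.0928 to 0.338 for *Tbx21* and -0.402 to 0.0344 for *Tcf7* in the third, where *Gata3* was at 0.0302 with the experiment code as a term. Over all genes, the 209 calls of the second comparison became 42 with the stricter filter, 93 in code EB046, 383 with DESeq2, 403 with the likelihood ratio test, 408 without a filter and 106 to 411 with 1 library left out. Those of the first comparison went from 3360 to 2222 in code EB046 and to 2062 without *Ptgs*-/- replicate 2, and those of the third from 1818 to 909 without depleted replicate 3. Among the shares no alternative moved a group mean by more than the spread between its tumors. Depth limits *Eomes* most, with 3 to 11 counts in each depleted tumor.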
